A study of Canis lupus familiaris with 15 samples.

Results

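The genes of MHC class I antigen processing and presentation were described in canine osteosarcoma cells that had left the blood vessels of zebrafish embryos, in the lines they came from, and in a related parental line. Genes were taken by name from 3 deposited tables of differentially expressed genes. A gene was included if it was 1 of 10 named genes of the pathway (B2M, TAP1, TAP2, TAPBP, PSMB8, PSMB9, PSMB10, NLRC5, CD74 and CIITA), or if its symbol had the form of a dog leukocyte antigen (DLA) or HLA gene. This gave 12 genes of the 7698 distinct genes in the tables. Of the 10 named genes 6 were listed, and 6 more were found by symbol, namely DLA88, DLA-12, DLA-64, DLA-79, DLA-DMA and DLA-DMB. No row carried TAP2, PSMB10, CD74 or CIITA. The tables hold only genes marked significant by the authors' test, so the absence of a gene says nothing about its level.

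RNA sequencing covered 15 libraries in 5 groups of 3, namely extravasated and parental cells of the lines D17 and HMPOS and parental cells of the line POS. All 3 are canine osteosarcoma lines, and HMPOS derives from POS. Extravasated cells were sublines grown in culture from cell clusters isolated after they had left the vessels, whereas the parental cells were grown in vitro and did not pass through a fish. Each table gives 1 value per group in FPKM, which is fragments divided by transcript length and by the total of mapped fragments, so neither the spread between libraries nor the depth is known and no group difference could be tested here.

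The columns carry short names, and which of a pair is extravasated rests on reading "meta" as extravasated and "norm" as parental. Read the other way, every gene given here as higher in extravasated D17 or HMPOS cells would be lower, and the HMPOS cells set against POS would be extravasated ones. The POS column is named "norm" as well, and all POS libraries are parental. The other reading would thus give "norm" a different meaning for POS than for D17 and HMPOS. Beyond these names, no measurement in the tables shows independently which reading holds. The article counts more genes lower than higher in extravasated cells of both lines, and describes immune pathways as enriched among the lower ones. With the columns as read here, more genes were higher than lower in both, 2385 against 2019 in D17 and 796 against 390 in HMPOS. The balance in the article thus runs the other way. The deposited log2 column divides the group named last by the one named first, so its sign is also opposite to that of the ratios here. The cause of the difference from the article was not tested.

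The design has further limits. Injected cells that stayed within the vessels were not sequenced, so passage through the embryo, exit from the vessel, isolation and regrowth cannot be told apart. The samples are bulk RNA, in which fewer cells of a type and less RNA per cell cannot be told apart either. The POS comparison sets a derived line against its line of origin and, with the columns read as stated, involves no fish. Of 15 leukocyte and endothelial markers, none was listed in either comparison of extravasated with parental cells, and KDR alone was listed between the parental lines. Of 9 osteoblast lineage markers, 8 (all but RUNX2) were listed in at least 1 table, among them COL1A1 and SPARC in all 3.

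MHC class I molecules show peptides from inside the cell to CD8+ T cells, and each consists of a polymorphic heavy chain and the light chain beta-2 microglobulin. Peptides are cut by the proteasome, in which interferon-inducible subunits can replace the constitutive ones, are carried into the endoplasmic reticulum by the transporter TAP, and are loaded with the help of tapasin. Nearly all nucleated cells make these molecules, and tumors often make less of them.

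Most but not all of the 12 genes belong to class I presentation. DLA-DMA and DLA-DMB encode the chains of the class II peptide exchanger DM, and CD74 and CIITA, among the genes not listed, also belong to class II. The other 10 genes act in class I presentation, in heavy and light chains, peptide supply and loading, or regulation.

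In D17, 11 of the 12 genes were listed, and 10 of these had higher FPKM in the column read as extravasated. Under the other reading of the column names these 10 would be lower in extravasated cells. Of all listed D17 genes with a value above 0 in both groups, 54.2% were higher in extravasated cells. A ratio above 2-fold in that direction was reached by 9 of the 11, against 18.2% of all listed genes. None of the 11 was lower by more than 2-fold, against 8.45% of all. The median log2 ratio, extravasated over parental, was 1.74 for the 11 genes and 0.39 for all listed genes.

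In HMPOS, 5 of the 12 genes were listed, all with higher FPKM in extravasated cells, as were 67.1% of all listed genes. Under the other reading of the column names all 5 would be lower in extravasated cells, together with these 67.1%. Only DLA-64 was higher by more than 2-fold, so that 1 of 5 compares with 20.5% of all listed genes and does not stand apart from it. None was lower by more than 2-fold, against 4.64% of all. The median log2 ratio was 0.85 for the 5 genes and 0.58 for all listed genes. Relative to that median of all genes the 5 genes had a median of 0.27, and DLA-79 lay below 0.

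Between the parental lines, 11 of the 12 genes were listed and 10 of them were lower in HMPOS than in POS, each by more than 2-fold, against 19.0% of all listed genes. DLA-DMA was the 1 gene higher in HMPOS, where 47.7% of all listed genes were higher. No gene of the set was higher by more than 2-fold, against 8.27% of all. The median log2 ratio of HMPOS over POS was -2.22 for the 11 genes and -0.31 for all listed genes. This comparison shares its parental HMPOS libraries with the HMPOS comparison above, so the ratios of these comparisons are not independent.

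**Figure D1:**
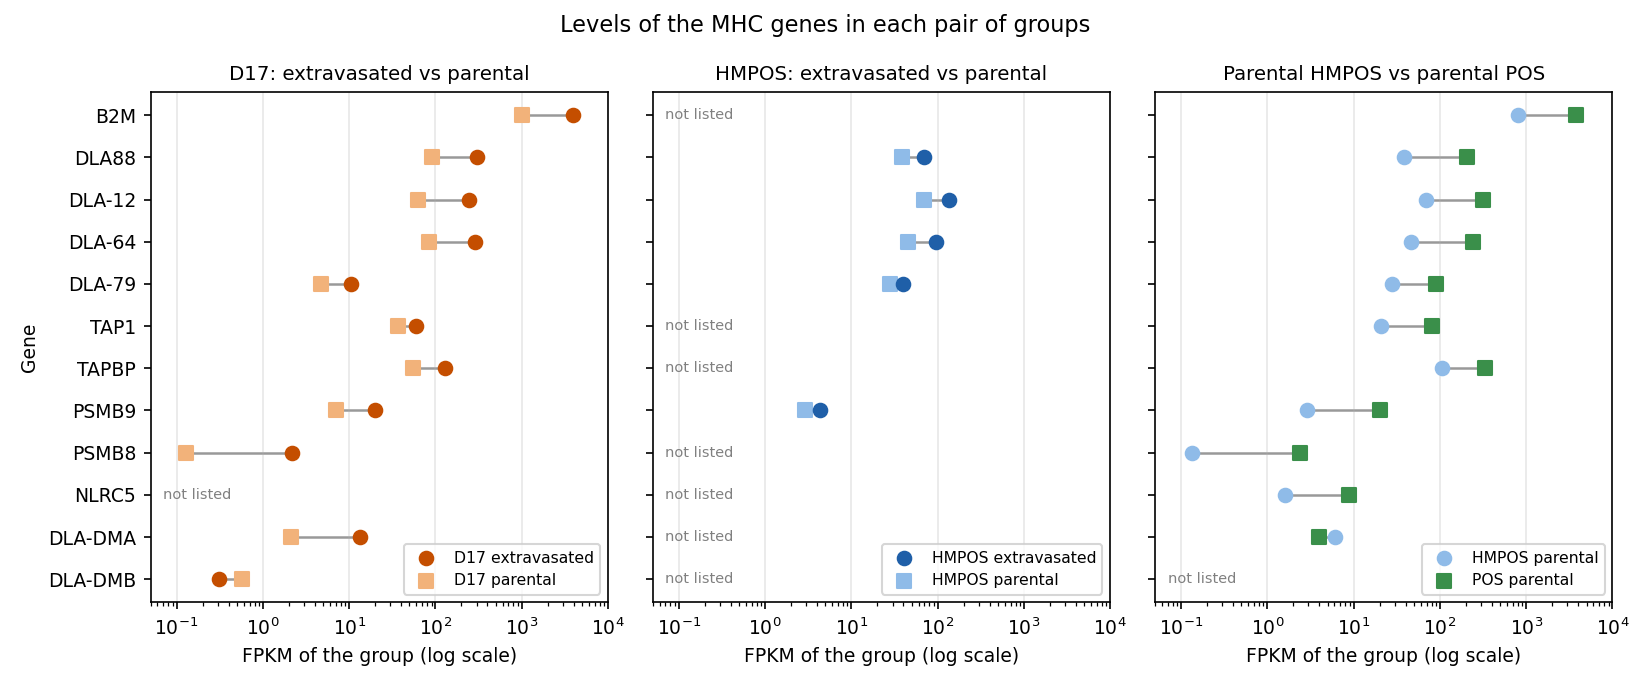
FPKM (log scale) of each listed gene of the set in both groups of each comparison, with 1 point per group that stands for 3 libraries and no error bar. B2M was highest in every comparison that lists it, with 3959 FPKM in extravasated against 1013 FPKM in parental D17 cells, and PSMB8 was lowest in parental D17 cells at 0.129 FPKM.

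The plot of levels places B2M above every other gene of the set. B2M (ENSCAFG00000013633, chr30:11331777-11337987 in CanFam3.1) encodes the light chain, without which most class I heavy chains do not reach the cell surface. In D17, B2M measured 3959 FPKM in extravasated against 1013 FPKM in parental cells, a 3.91-fold higher level. These levels ranked 18 and 52 among the genes of that table. B2M was not listed in the HMPOS comparison. Between parental lines it measured 807.8 FPKM in HMPOS against 3753 FPKM in POS, 4.65-fold higher in POS, where it ranked 4 among all listed genes.

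DLA88 (ENSCAFG00000000487, chr12:892227-895691) encodes the highly polymorphic classical heavy chain of the dog. It measured 305.5 FPKM in extravasated against 91.7 FPKM in parental D17 cells, 3.33-fold higher. In HMPOS it measured 68.8 FPKM in extravasated against 38.2 FPKM in parental cells, 1.80-fold higher. Parental POS cells had 207.1 FPKM, against 38.2 FPKM in parental HMPOS cells, a log2 ratio of -2.44. With the columns read as stated, DLA88 was higher in the extravasated sublines of both lines, and with the columns turned it would be lower in both. The tables were normalized separately, so levels of different tables are placed side by side only as a description.

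DLA-12 (ENSCAFG00000032222, chr12:933311-936671) and DLA-64 (ENSCAFG00000000500, chr12:983572-986969) encode further class I heavy chains. DLA-12 measured 244.9 FPKM in extravasated against 63.5 FPKM in parental D17 cells, 3.85-fold higher. In HMPOS it measured 135.3 FPKM and 69.1 FPKM, 1.96-fold higher and just short of the 2-fold limit. In parental POS it reached 319.8 FPKM, against 69.1 FPKM in parental HMPOS, a log2 ratio of -2.21. DLA-64 followed the same course. It measured 288.2 FPKM in extravasated against 83.6 FPKM in parental D17 cells, 3.45-fold higher. Extravasated HMPOS cells had 94.7 FPKM and parental HMPOS cells 45.9 FPKM, 2.06-fold higher and just past the limit. In the comparison of parental lines DLA-64 measured 45.8 FPKM in HMPOS against 240.5 FPKM in POS, or a log2 ratio of -2.39.

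DLA-79 (ENSCAFG00000008234, chr18:41142495-41146106) encodes a nonclassical heavy chain and lies on another chromosome than the other heavy chain genes. It measured 10.5 FPKM in extravasated against 4.71 FPKM in parental D17 cells, 2.24-fold higher. In HMPOS it measured 39.9 FPKM in extravasated against 28.1 FPKM in parental cells, 1.42-fold higher, but its log2 ratio was -0.08 once the median of all listed genes was subtracted. POS had 91.3 FPKM and parental HMPOS 28.1 FPKM, a log2 ratio of -1.70. Among the heavy chain genes, DLA-79 had the smallest ratio in each of the 3 comparisons.

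The heavy chain genes resemble one another in sequence, and how reads that match several of them were shared out is not given. Their split is therefore uncertain, and the sum of the 4 genes was also taken. The sum was 849.1 FPKM in extravasated against 243.6 FPKM in parental D17 cells, 3.49-fold higher. In HMPOS the sum was 338.7 FPKM in extravasated against 181.2 FPKM in parental cells, 1.87-fold higher. The sum in parental POS was 858.6 FPKM, 4.74-fold that of parental HMPOS. With the columns read as stated, the sum was of similar size in extravasated D17 and parental POS, and lowest in parental HMPOS. Under the other reading the 849.1 FPKM would be those of parental D17, and the lowest sum that of extravasated HMPOS.

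The makeup of the sum differed between D17 and the other lines. DLA88 made up 36.0% of the sum in extravasated and 37.7% in parental D17 cells. In HMPOS its share was 20.3% in extravasated and 21.1% in parental cells, and in POS it was 24.1%. DLA-12 held the largest share in HMPOS, 39.95% in extravasated and 38.1% in parental cells, and in POS, 37.2%. DLA-79 contributed 1.24% in extravasated and 1.93% in parental D17 cells. The DLA-79 share was 11.8% in extravasated HMPOS, 15.5% in parental HMPOS and 10.6% in POS. The DLA-79 share was thus lowest in D17.

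**Figure D2:**
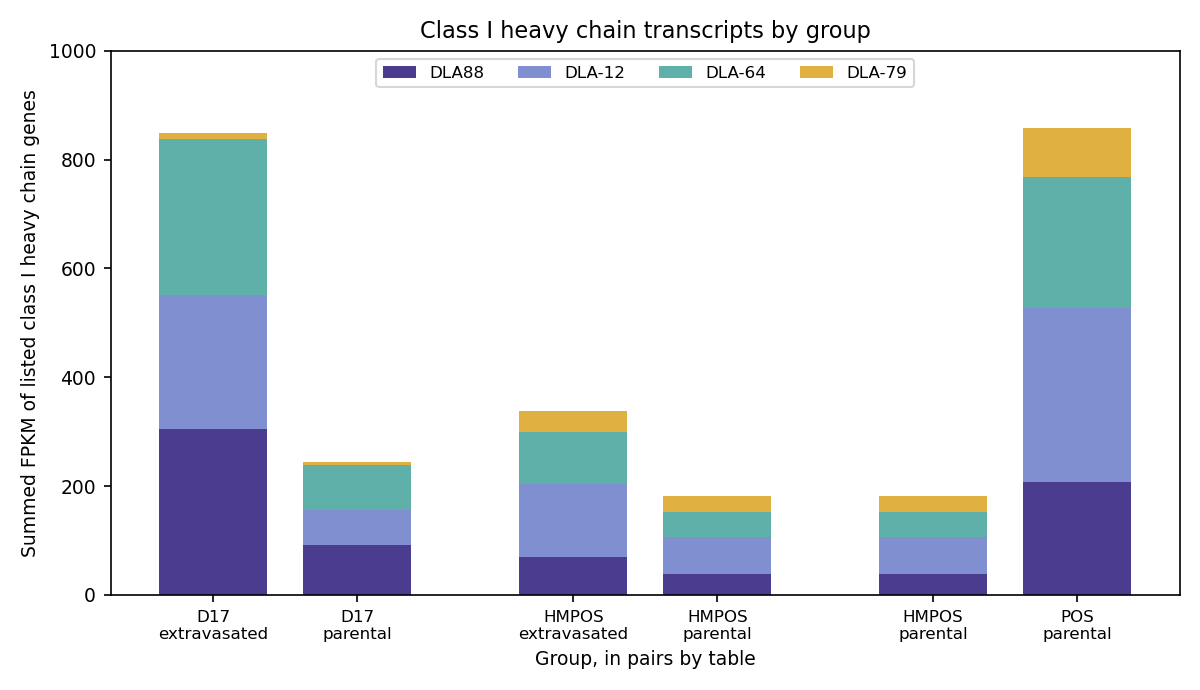
Summed FPKM of the 4 class I heavy chain genes in both groups of each comparison, divided by gene, with 1 pooled value per group. The sum was 849.1 FPKM in extravasated against 243.6 FPKM in parental D17 cells, 338.7 FPKM and 181.2 FPKM in HMPOS, and 858.6 FPKM in parental POS.

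The stacked plot of heavy chains can be set beside the light chain. B2M amounted to 4.66 FPKM per FPKM of summed heavy chain in extravasated D17 cells and 4.16 in parental D17 cells. In the comparison of parental lines this quotient was 4.46 in HMPOS and 4.37 in POS. In these comparisons the quotient stayed between 4.16 and 4.66. It could not be formed for extravasated against parental HMPOS cells, where B2M was not listed.

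TAP1 and TAPBP, genes of peptide transport and loading, had smaller ratios in D17 than B2M, DLA88, DLA-12 and DLA-64. TAP1 (ENSCAFG00000000832, chr12:2424464-2432068) encodes a subunit of the peptide transporter. It measured 60.1 FPKM in extravasated against 36.7 FPKM in parental D17 cells, 1.64-fold higher. TAP1 was not listed in HMPOS. Parental HMPOS had 20.9 FPKM and parental POS 81.7 FPKM, 3.91-fold higher in POS. TAP1 thus stayed under the 2-fold limit in extravasated D17 cells and passed it between the parental lines.

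TAPBP (ENSCAFG00000000972, chr12:2740259-2751926) encodes tapasin, which bridges TAP and the empty class I molecule. It measured 129.4 FPKM in extravasated against 54.9 FPKM in parental D17 cells, 2.36-fold higher. TAPBP, too, had no row in the HMPOS table. It measured 106.8 FPKM in parental HMPOS and 336.9 FPKM in POS, or a log2 ratio of -1.66. TAPBP starts 477 bases from the end of RGL2, a neighboring gene that was lower in extravasated D17 cells, with 15.6 FPKM against 22.0 FPKM. Between parental lines RGL2 was lower in HMPOS, as was TAPBP, with 20.5 FPKM against 31.4 FPKM in POS.

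Of 10 genes of peptide loading, TAP1, TAPBP and 4 others were listed in D17. TAPBPL, which encodes a tapasin-related peptide editor, measured 0.681 FPKM in extravasated against 0.0287 FPKM in parental D17 cells, with a log2 ratio of 4.57 between levels under 1 FPKM. ERAP2, an aminopeptidase that trims peptides in the endoplasmic reticulum, measured 1.52 FPKM and 0.224 FPKM, a log2 ratio of 2.77. Its relative ERAP1 measured 39.8 FPKM and 28.3 FPKM, a log2 ratio of 0.49. The ratio of ERAP1 lies near the 0.39 of all listed D17 genes, of which 54.2% were higher, and that of ERAP2 rests on a parental value far under 1 FPKM. The chaperone CALR was lower, at 290.5 FPKM in extravasated against 396.8 FPKM in parental cells. None of the 10 genes was listed in HMPOS.

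Between the parental lines, 6 of the 10 loading genes were listed, and the peptide trimming genes of the endoplasmic reticulum were lower in HMPOS. ERAP1 measured 6.04 FPKM in HMPOS against 24.2 FPKM in POS, or a log2 ratio of -2.001. ERAP2 measured 0.154 FPKM and 0.719 FPKM, a log2 ratio of -2.22 between low levels. TAP1 and TAPBP, given above, were lower too, whereas LNPEP and CALR were higher in HMPOS. LNPEP, an aminopeptidase of endosomes, measured 4.08 FPKM in HMPOS against 1.27 FPKM in POS, or a log2 ratio of 1.69. CALR measured 635.3 FPKM and 423.0 FPKM, a log2 ratio of 0.59.

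Of the immunoproteasome subunits, PSMB8 had low levels and large ratios, and PSMB9 lay nearer the rest of the set. PSMB8 (ENSCAFG00000000829, chr12:2419455-2422832) encodes the inducible subunit that takes the place of PSMB5. It measured 2.16 FPKM in extravasated against 0.129 FPKM in parental D17 cells, with a log2 ratio of 4.06. With 1 FPKM added to both values this ratio was 1.48, still the same direction. PSMB8 was not listed in HMPOS. In parental HMPOS it measured 0.135 FPKM and in POS 2.37 FPKM, a log2 ratio of -4.14, or -1.57 with 1 FPKM added. Without an added value PSMB8 had the largest ratio of the set in both comparisons that list it. Each ratio was between a value of about 2 FPKM and a value far under 1 FPKM. With 1 FPKM added PSMB8 lost this rank, since DLA-DMA had 2.19 in D17 and PSMB9 had -2.45 between parental lines.

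PSMB9 (ENSCAFG00000030725, chr12:2432578-2441456) encodes the inducible subunit that takes the place of PSMB6. It measured 19.7 FPKM in extravasated against 7.09 FPKM in parental D17 cells, 2.78-fold higher. In HMPOS it measured 4.38 FPKM in extravasated against 2.90 FPKM in parental cells, 1.51-fold higher. POS had 20.3 FPKM, 6.99-fold the 2.90 FPKM of parental HMPOS. PSMB9 was the only non-heavy-chain gene of the set listed in all 3 tables, and in HMPOS its ratio lay close to the median of all listed genes.

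Of the constitutive subunits, PSMB6 alone was listed in D17 and none in HMPOS. PSMB6 measured 194.5 FPKM in extravasated against 281.1 FPKM in parental D17 cells, with a log2 ratio of -0.53. PSMB9 therefore amounted to 10.1% of PSMB6 in extravasated and 2.52% in parental D17 cells. Under the other reading of the column names, 2.52% would be that of extravasated and 10.1% that of parental cells. Between parental lines PSMB5, PSMB6 and PSMB7 were all higher in HMPOS, with log2 ratios of 0.94, 0.29 and 0.30, none past 2-fold. Of all genes listed in that comparison, 47.7% were higher in HMPOS. PSMB9 amounted to 1.10% of PSMB6 in parental HMPOS and 9.39% in POS. PSMB8 amounted to 0.116% of PSMB5 in parental HMPOS and 3.91% in POS. In every group where the quotient could be formed, RNA of the constitutive subunit exceeded that of the inducible one by a wide margin.

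Of 8 genes of the immunoproteasome and its activators, PSMB8, PSMB9 and 3 activator genes were listed in D17. PSME1 and PSME2 encode the subunits of the proteasome activator PA28. PSME1 measured 59.0 FPKM in extravasated against 44.6 FPKM in parental D17 cells, and PSME2 measured 243.2 FPKM and 195.5 FPKM, log2 ratios of 0.40 and 0.31, the latter below the 0.39 of all listed D17 genes. The activator PSME4 was lower, at 14.9 FPKM and 18.4 FPKM. Only PSMB9 was listed in HMPOS. Between parental lines PSME1 and PSME2 were lower in HMPOS, with log2 ratios of -0.99 and -0.53. The activators thus differed less than the inducible catalytic subunits.

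NLRC5 (ENSCAFG00000008933, chr2:59220409-59359909) encodes a transactivator of class I genes. It measured 1.59 FPKM in parental HMPOS and 8.83 FPKM in POS, 5.55-fold higher in POS. NLRC5 was not listed in D17 or HMPOS, so no ratio of extravasated to parental cells can be given for the main regulator in the set. Of 9 regulators of MHC genes, the D17 table listed NFYB alone, lower in extravasated cells with a log2 ratio of -0.32, and the HMPOS table listed none. Between parental lines RFX5, which binds the promoters of MHC genes, was lower in HMPOS, at 7.19 FPKM against 12.1 FPKM. NFYB and NFYC, subunits of a factor that binds the same promoters, were higher in HMPOS, with log2 ratios of 0.29 and 0.32.

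Interferons are known inducers of class I genes, and 16 genes of their signaling were looked up. The result for 1 gene of this list was left out, and the counts given here are without it. In D17, 4 were listed and all were higher in extravasated cells, as were 54.2% of all listed genes, and none passed 2-fold. IRF9 measured 33.4 FPKM and 22.3 FPKM, IRF1 20.8 FPKM and 15.8 FPKM, and IRF2 and STAT3 had log2 ratios of 0.50 and 0.48. These ratios lie near the 0.39 of all listed D17 genes. None of the 16 was listed in HMPOS. Between parental lines 6 were listed, 5 lower and 1 higher (JAK2) in HMPOS, where 47.7% of all listed genes were higher. IRF9 measured 9.57 FPKM in HMPOS against 72.0 FPKM in POS, or a log2 ratio of -2.91. IRF1 measured 5.34 FPKM and 11.9 FPKM, a log2 ratio of -1.16. IRF9 and IRF1 were lower by more than 2-fold, 2 of the 6 listed, against 19.0% of all listed genes. Their part in the levels of the class I genes was not tested.

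**Figure D3:**
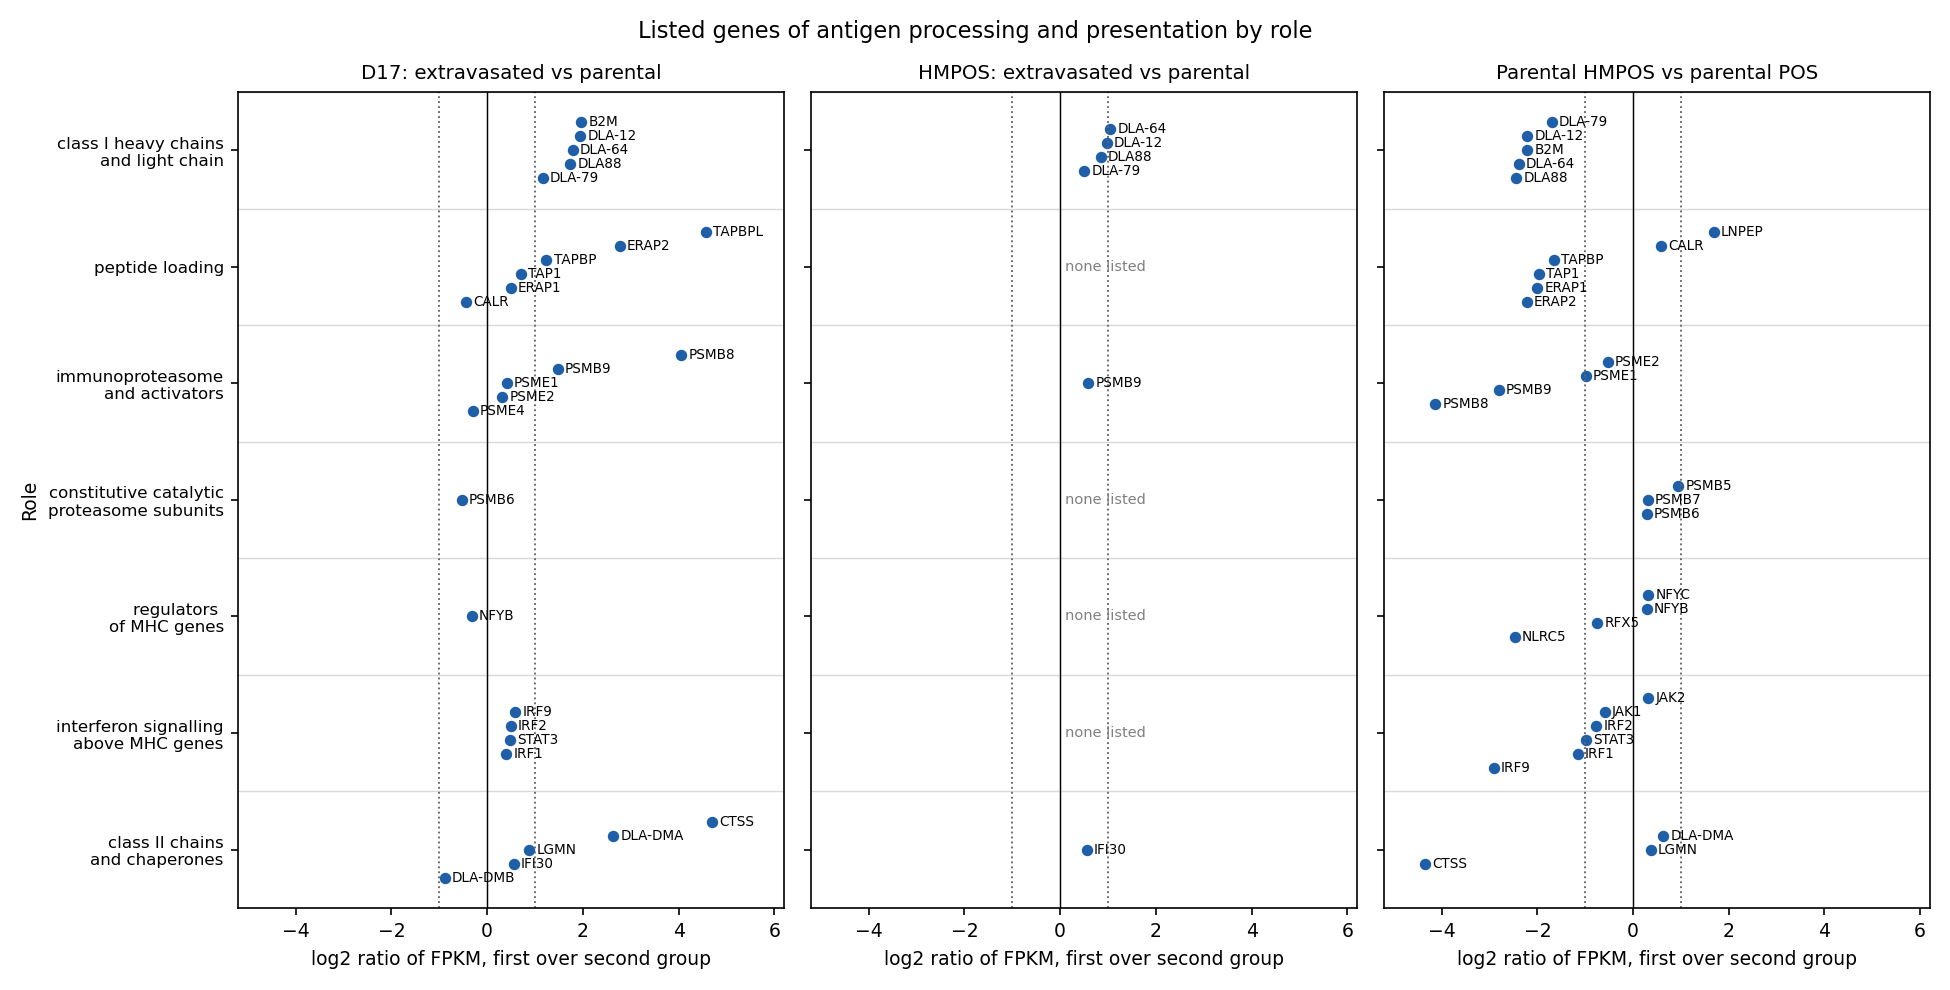
Log2 ratio of FPKM, first group over second, for the listed genes of each role, with 1 point per gene. In D17 the heavy and light chains lie between 1.16 and 1.97 and the listed interferon signaling genes between 0.40 and 0.58, while between parental lines the heavy and light chains lie between -2.44 and -1.70.

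As the plot by role shows, the class II genes did not move together. DLA-DMA (ENSCAFG00000000848, chr12:2516975-2520999) encodes the alpha chain of DM. It measured 13.3 FPKM in extravasated against 2.14 FPKM in parental D17 cells, 6.23-fold higher. DLA-DMB (ENSCAFG00000032102, chr12:2498737-2508275) encodes the beta chain. It measured 0.312 FPKM in extravasated against 0.578 FPKM in parental D17 cells, with a log2 ratio of -0.89, or -0.27 with 1 FPKM added to both. The chains of a single heterodimer thus differed in opposite directions, with the beta chain below 1 FPKM in both groups. Neither was listed in HMPOS. DLA-DMA was also the exception between parental lines, at 6.12 FPKM in HMPOS against 3.97 FPKM in POS, 1.54-fold higher in HMPOS.

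Among other genes of the class II pathway, CTSS had the largest ratio in D17 and between parental lines, and it was not listed in HMPOS. CTSS encodes cathepsin S, which degrades the invariant chain, and measured 26.5 FPKM in extravasated against 1.02 FPKM in parental D17 cells, 26.0-fold higher. Between parental lines CTSS measured 1.29 FPKM in HMPOS against 26.3 FPKM in POS, 20.4-fold higher in POS. LGMN and IFI30, a protease and a thiol reductase of the endocytic route, were higher in extravasated D17 cells with log2 ratios of 0.87 and 0.55. IFI30 was also higher in extravasated HMPOS cells, at 128.2 FPKM against 87.3 FPKM, a log2 ratio of 0.55 that lies just under the median of all listed HMPOS genes. LGMN was higher in parental HMPOS than in POS, with a log2 ratio of 0.37.

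**Figure D4:**
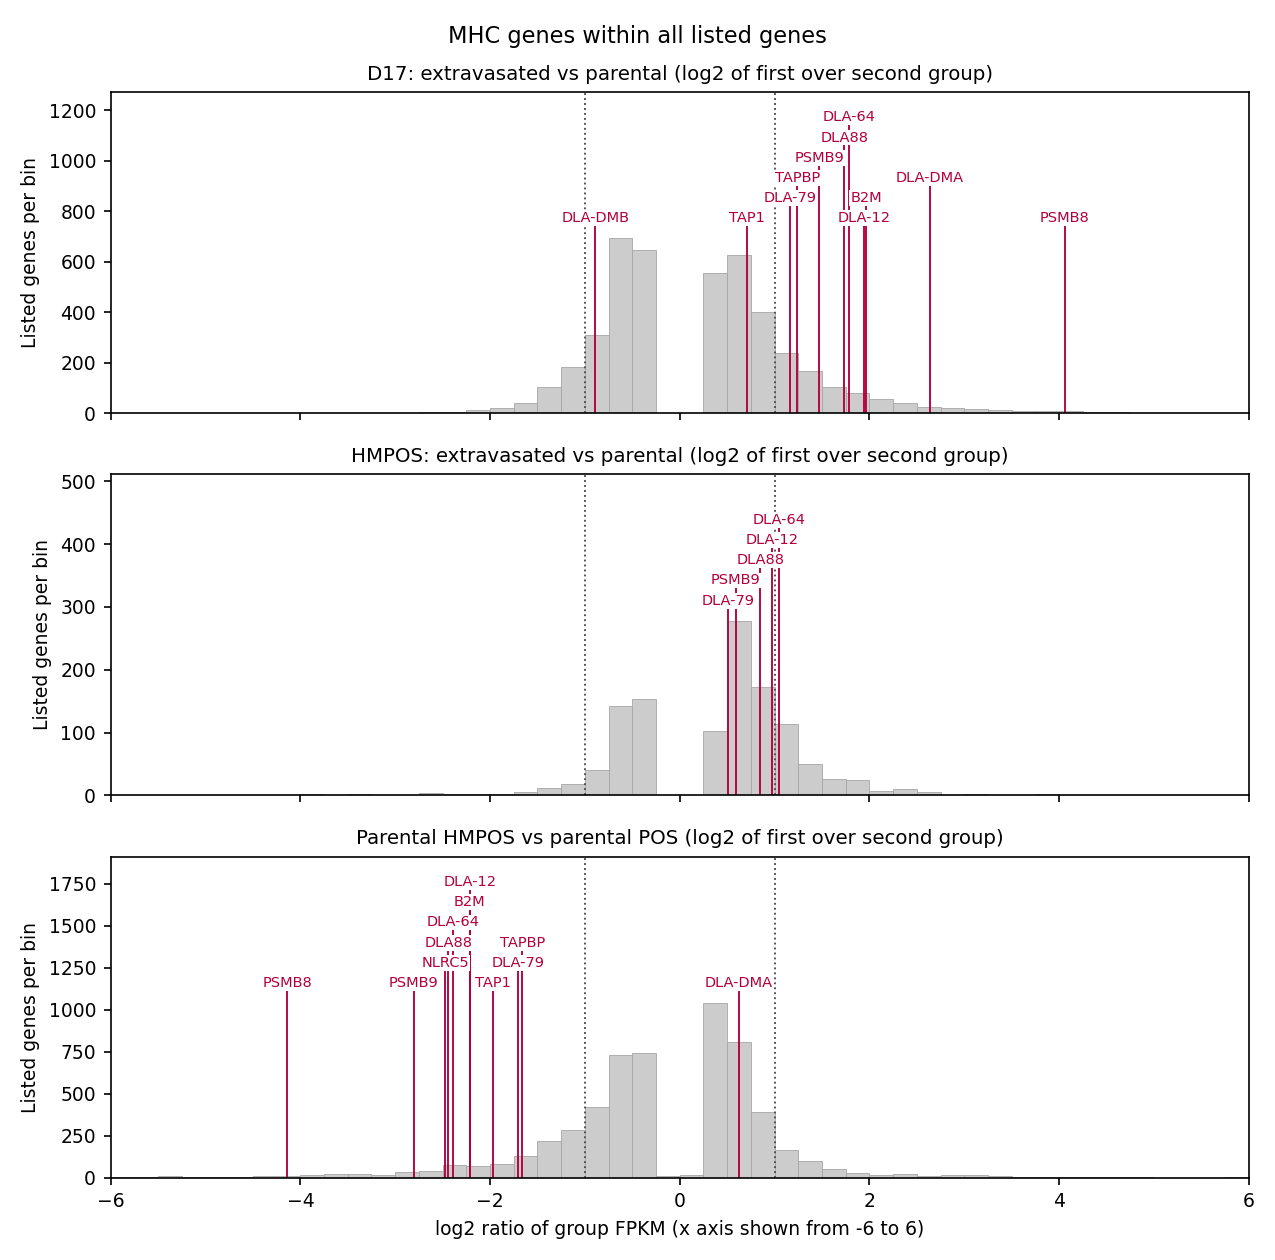
Distribution of log2 ratios of FPKM over all listed genes of each comparison (number of genes per bin), with the genes of the set drawn as vertical lines. The genes of the set have a median of 1.74 in D17, 0.85 in HMPOS and -2.22 between parental lines, and all listed genes have medians of 0.39, 0.58 and -0.31.

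The distributions show where the set lies among all listed genes. In D17, 10 of 11 genes had a ratio above the median of all listed genes, DLA-DMB being the exception. In HMPOS this held for 4 of 5, all but DLA-79. Between parental lines, 10 of 11 genes lay below that median, all but DLA-DMA. With ratios taken relative to the median of all listed genes, 7 genes were higher and 1 was lower by more than 2-fold in D17. None of the 5 then passed 2-fold in HMPOS, and 10 were lower by more than 2-fold between parental lines. The share of all listed genes past 2-fold after this centring was not counted, so these counts have no share beside them. Whether D17 and HMPOS differ in the size of their ratios was not tested, since there are no values per library.

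Most of the set shares a chromosome region. Of the 12 genes, 9 lie on chromosome 12 within 1859.7 kb, from DLA88 to TAPBP, while B2M, DLA-79 and NLRC5 lie on chromosomes 30, 18 and 2. PSMB8, TAP1 and PSMB9 follow one another, with 1632 bases between PSMB8 and TAP1 and 510 bases between TAP1 and PSMB9. The listed coordinates of these 3 genes do not overlap. The tables give no strand.

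Between DLA88 and TAPBP, other genes were listed as well. In D17 the region held 11 other listed genes, 5 higher and 6 lower in extravasated cells, and their median log2 ratio was -0.35 against 1.74 for the 9 genes of the set. The share of all listed D17 genes that were higher was 54.2%. ZBTB12 and B3GALT4 were the only others above 2-fold. SLC39A7, higher with a log2 ratio of 0.30, lay below the 0.39 of all listed D17 genes. In HMPOS, DLA88, DLA-12, DLA-64 and PSMB9 were the only genes listed in the region. Between parental lines 14 other genes were listed, 6 higher and 8 lower in HMPOS, with a median log2 ratio of -0.33 against -2.30 for the 8 genes of the set. Of all genes listed between parental lines 47.7% were higher in HMPOS. ZBTB12 was the only other gene lower by more than 2-fold, and ZBTB12, B3GALT4 and RXRB had ratios of the same direction as most of the set in D17 and between parental lines, which are values side by side and no test. B2M, DLA-79 and NLRC5, outside the region, had ratios of the same direction as the heavy chains in each comparison that lists them, apart from DLA-79 in HMPOS when ratios were centred on the median.

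**Figure D5:**
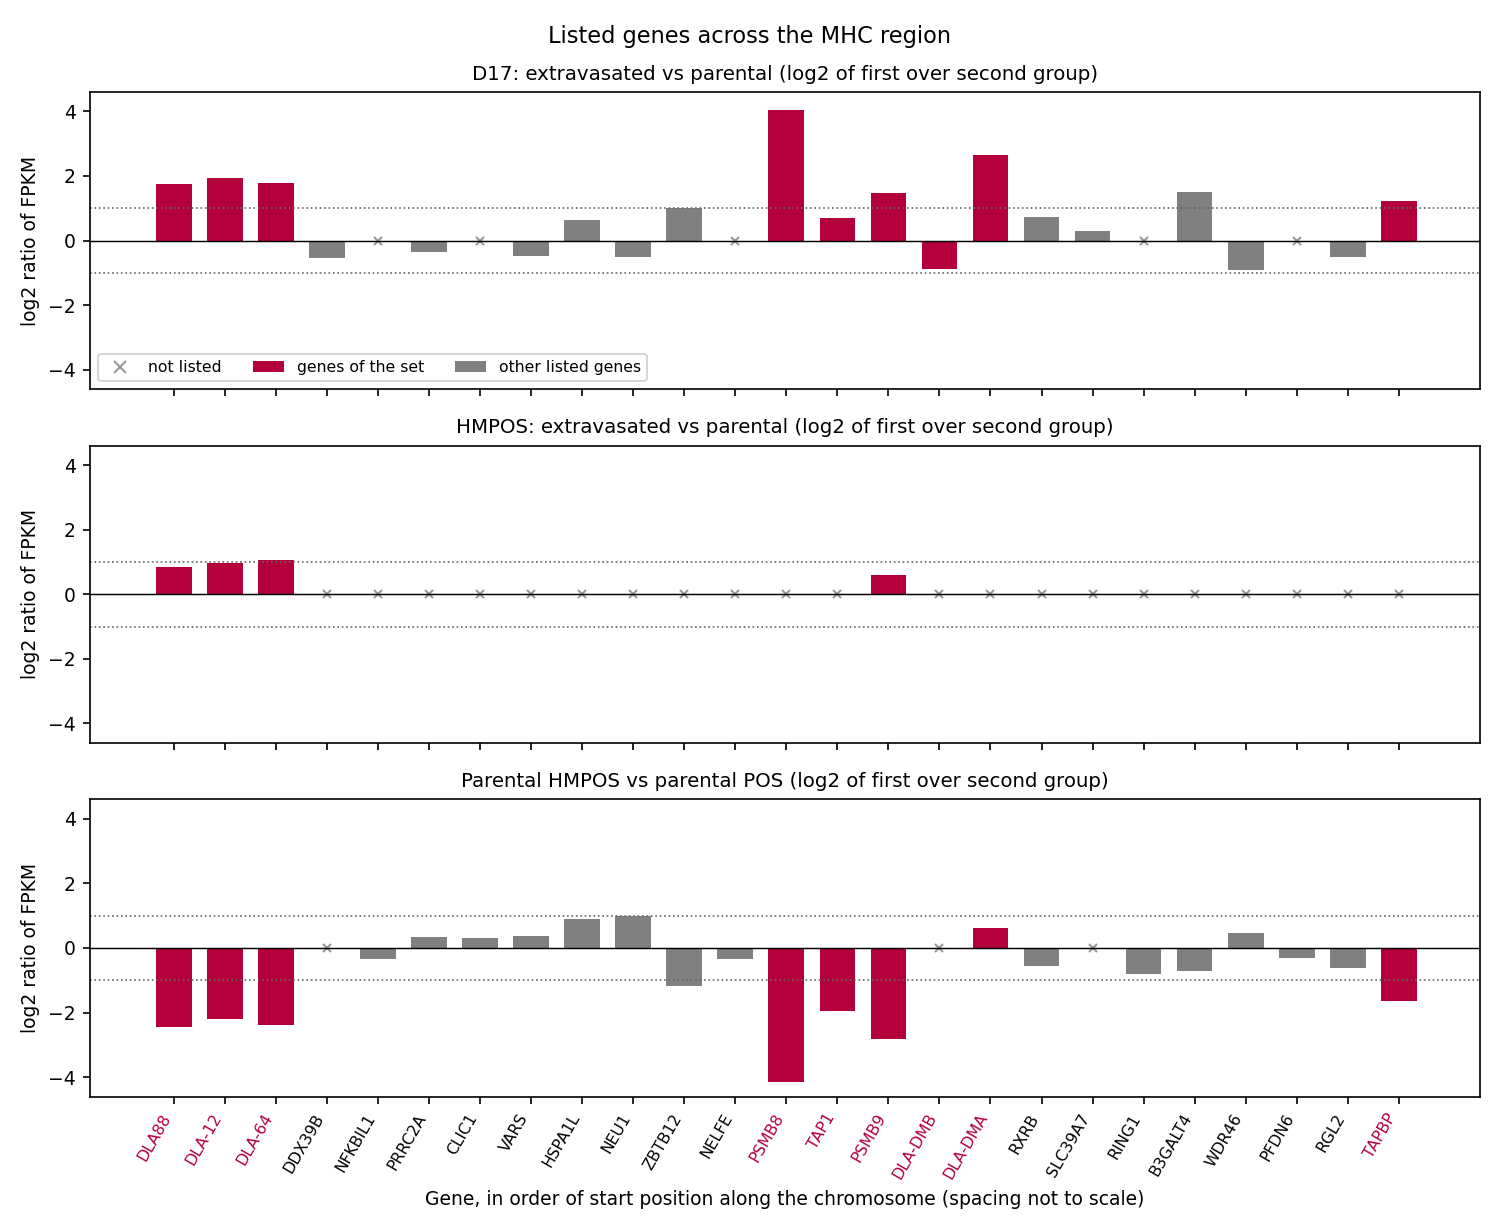
Log2 ratio of FPKM, first group over second, of every listed gene from DLA88 to TAPBP, in chromosome order and not to scale, with genes of the set in red, other listed genes in gray and crosses for genes not listed in that comparison. The median is 1.74 for the set and -0.35 for the other genes in D17, and -2.30 and -0.33 between parental lines.

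The set was uneven among itself. In D17 the log2 ratios ran from -0.89 for DLA-DMB to 4.06 for PSMB8, both at low levels. Between parental lines they ran from -4.14 for PSMB8 to 0.62 for DLA-DMA. In HMPOS the 5 listed genes ran from 0.51 for DLA-79 to 1.05 for DLA-64, and PSMB8, DLA-DMA and DLA-DMB, which set the limits elsewhere, were not listed.

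Of 494 genes listed in all 3 tables, 5 belong to the set, namely DLA88, DLA-12, DLA-64, DLA-79 and PSMB9. Their median log2 ratios were 1.74 in D17, 0.85 in HMPOS and -2.39 between parental lines, the last pair sharing the parental HMPOS libraries. By Euclidean distance over the 3 ratios, the genes outside the set nearest to these medians were MCOLN3, CTSH, PIWIL4, SLC43A1 and GM2A. MCOLN3, a cation channel of endosomes and lysosomes, was nearest, at a distance of 0.247, with log2 ratios of 1.78, 1.09 and -2.37. CTSH, which encodes cathepsin H, followed at 0.353, with log2 ratios of 1.97, 1.11 and -2.40. Distances of the other 3 were 0.359, 0.382 and 0.412. The medians are themselves values of DLA88 (D17 and HMPOS) and DLA-64 (parental lines), so the nearness of these genes is given by construction. PSMB9 lay at 0.553 and DLA-79 at 0.962, farther than the 5 named genes. Nearness over 3 ratios says nothing of shared function or control.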

How the data were processed

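The authors deposited, for each of 3 comparisons, a table of genes marked significant with the FPKM of each group, their log2 ratio, and the statistic, p-value and q-value of the authors' test. Only the FPKM values were used here. The log2 column of the tables divides the column named last by the one named first, so its sign is opposite to that of the ratios printed here. The processing notes name Trimmomatic 0.38, TopHat2, Cufflinks, Cuffdiff and CanFam3.1, whereas the methods of the article describe STAR, voom and limma. The notes name an RNeasy kit and a directional NEBNext kit, and the article other kits. Coordinates are as listed, and whether starts count from 0 or 1 is not given.

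Columns were assigned to groups from their names. "Norm" was taken as parental, since the POS column is so named and all POS libraries are parental, and "meta" was taken as extravasated. The reverse reading would invert every ratio of extravasated to parental cells. Over 907 genes in both HMPOS tables, the parental columns differed by a median absolute log2 of 0.00135, and the extravasated column differed from parental by 0.698. These genes were listed because they differed between the HMPOS groups, so the latter value follows from their selection. The former shows that the same HMPOS group stands in both tables. Neither value shows which group is extravasated.

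Log2 ratios were computed from FPKM without a pseudocount. Rows with a value of 0 (8 for D17, 3 for HMPOS, 28 for the parental lines) were given no ratio. Genes past 2-fold were counted, with no test. Depth per library is unknown, so no SD, interval or detection floor is given. Alternatives were other fold limits, a minimum of 1 FPKM, pseudocounts of 1 and 0.1, centring on the median and 1 row per symbol. The genes named were every listed gene of the set, genes of the role lists past 2-fold (at most the 4 largest above 1 FPKM where more than 4 passed), and the 5 nearest by ratios. Other genes were named after their values were seen. The result for 1 gene of the interferon list was left out, and counts of that list are without it. Members and lists were chosen with earlier results of these data known. Promoter motifs were not searched, since no sequence was used here. Scripts were tested on simulated data and run in Python 3.11.15 with numpy 2.4.6, pandas 2.3.3 and matplotlib 3.10.9.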

Additional observations from a re-analysis of the deposited data

How the results depend on the processing

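Of 57 recomputed counts and medians, 50 stayed within 1.5-fold of the reported value and 7 counts moved. The 15 medians kept their direction, whereas the 42 counts have no direction and could not reverse. Medians and ratios were compared as folds and not as log2 values. The HMPOS median of 0.85, which was 0.27 after centring, therefore counts as within 1.5-fold. At a fold limit of 4, the genes of the set higher in extravasated cells numbered 2 in D17 and 0 in HMPOS. With a limit of 1.5, 4 were higher in HMPOS, 1 (DLA-DMB) was lower in D17, and 1 (DLA-DMA) was higher in parental HMPOS than in POS. With ratios centred on the median of all listed genes, 0 were higher by more than 2-fold in HMPOS and 1 (DLA-DMB) was lower in D17. For single genes, 50 of 54 recomputed ratios stayed within 1.5-fold, 3 moved (PSMB8 in both comparisons that list it and DLA-DMB in D17, each with 1 FPKM added) and 1 reversed, DLA-79 in HMPOS, at -0.0775 after centring. These moves follow from the limits, the added value and the subtracted median themselves. Much of the agreement was fixed in advance as well. The subtracted medians of 0.39, 0.58 and -0.31 are each smaller in size than a 1.5-fold shift. Centring could therefore not move a median or ratio unless its sign turned. Taking 1 row per symbol could not change the set, whose genes have 1 row in each table that lists them. No paired analysis was possible because each group is given as 1 pooled value. Leaving out single libraries was not possible for the same reason, and the search for promoter motifs was not run. The unknown depth limits most the genes under 1 FPKM, namely PSMB8 in the parental D17 and HMPOS groups and DLA-DMB in D17.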

Other observations

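Several MHC-like genes outside the set were also listed. FCGRT encodes the heavy chain of the neonatal Fc receptor, which pairs with beta-2 microglobulin. It measured 11.7 FPKM in extravasated against 3.36 FPKM in parental D17 cells, and 31.8 FPKM and 15.0 FPKM in HMPOS, log2 ratios of 1.80 and 1.09. Parental POS had 34.4 FPKM of FCGRT against 15.0 FPKM in parental HMPOS, a log2 ratio of -1.20. PROCR, the endothelial protein C receptor, measured 37.3 FPKM and 17.7 FPKM in D17 and 18.5 FPKM and 9.67 FPKM in HMPOS. It had a log2 ratio of -0.49 between parental HMPOS and POS. HFE, a regulator of iron uptake, was listed in D17 alone, at 3.18 FPKM in extravasated against 1.01 FPKM in parental cells. AZGP1 was listed in HMPOS alone, at 2.34 FPKM and 0.685 FPKM. Of the 10 MHC-like genes, 3 were listed in D17 and 3 in HMPOS, all higher in extravasated cells. Of all listed genes 54.2% and 67.1% were higher, and with 3 genes each neither count is read as a pattern. FCGRT and PROCR, listed between parental lines, were lower in HMPOS than in POS.

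Of 14 ligands of T cell and NK cell receptors, 3 were listed in D17, all higher in extravasated cells by more than 2-fold, against 18.2% of all listed genes. LGALS9, which encodes galectin-9, measured 177.8 FPKM in extravasated against 79.3 FPKM in parental D17 cells. CD40 measured 3.097 FPKM and 0.733 FPKM, and CD276, an inhibitory ligand of the B7 family, 13.8 FPKM and 6.74 FPKM. In HMPOS, LGALS9 measured 1.28 FPKM and 0.3796 FPKM, and ICAM1 39.5 FPKM and 29.8 FPKM, a log2 ratio of 0.41 that lies below the 0.58 of all listed HMPOS genes. Between parental lines 6 were listed, and LGALS9 had the largest ratio, at 0.379 FPKM in HMPOS against 36.6 FPKM in POS. CD274, which encodes PD-L1, measured 0.335 FPKM in parental HMPOS and 1.46 FPKM in POS. CD276 and TNFSF9 were lower in HMPOS, with log2 ratios of -0.35 and -0.74, and CD80 and ICAM1 were higher, with log2 ratios of 0.99 and 0.42.

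Bone genes describe the lines further. In D17, SPP1 measured 25.2 FPKM in extravasated against 3.71 FPKM in parental cells, COL1A2 1359.7 FPKM and 493.4 FPKM, SPARC 433.0 FPKM and 186.9 FPKM, and COL1A1 397.4 FPKM and 224.4 FPKM. In HMPOS, ALPL, BGLAP, SPARC and COL1A1 were higher in extravasated cells with log2 ratios from 0.42 to 0.95 (COL1A1, the lowest, lay below the median of all listed genes), and IBSP was lower, at 0.427 FPKM against 2.05 FPKM. Between parental lines, BGLAP measured 27.3 FPKM in HMPOS against 676.3 FPKM in POS. SPP1, COL1A1 and SPARC were also lower in HMPOS, with log2 ratios of -2.99, -1.49 and -1.32, and SP7 was higher, with 0.39. KDR, the 1 endothelial marker listed, measured 0.146 FPKM in HMPOS against 1.73 FPKM in POS.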
